A study of Mus musculus with 4 samples.

Results

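The regions described here are stretches of intergenic DNA in mouse liver where peaks of both the glucocorticoid receptor (GR) and E2A were called. Chromatin immunoprecipitation followed by sequencing (ChIP-Seq) was carried out with an antibody against GR or against E2A in livers of wild-type (E47+/+) male C57BL/6 mice on chow, collected at ZT 10 as whole tissue with all its cell types, with 2 replicates per antibody and 4 peak lists in all. The methods give an age of 10 to 16 weeks, and the study asked where in the liver genome the 2 factors bind together. The labels call the livers untreated, whereas the description of a supplementary list of the same peaks calls them Dex-treated, so the treatment is uncertain. The descriptions of both E2A samples name a GR ChIP, the second in E47-/- livers, against their titles, antibody and genotype, which were used here. The number of regions, several odds ratios and the counts of motifs passing are also given without each list. Because the doubt concerns both E2A lists, leaving out either of them cannot settle it.

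Members were chosen by the called peaks themselves. Peaks of the 2 GR replicates that shared at least 1 bp were merged into 8795 GR regions, and the E2A peaks were merged in the same way. A GR region was kept if it was under 1500 bp wide, shared at least 1 bp with an E2A region, had no GR peak in a promoter and began with a GR peak that the deposited annotation placed in distal intergenic sequence or just downstream of a gene. This left 603 regions, 562 of them distal intergenic and 41 downstream of a gene. Of all GR regions under 1500 bp, 29.5% shared sequence with an E2A region, a share that the rule itself uses. The closest classes were 1234 intergenic GR regions without E2A, 589 intronic regions with both factors and 603 intergenic E2A regions without GR. All coordinates are those of mm10.

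GR is the nuclear receptor for cortisol and corticosterone. On binding its hormone it enters the nucleus and occupies enhancers and promoters, in part through a palindromic glucocorticoid response element (GRE) and in part at sites where other factors have already opened the chromatin. E2A is the product of *Tcf3*, whose splice forms E12 and E47 are basic helix-loop-helix proteins that bind E-boxes, CANNTG, as dimers. In hepatocytes, enhancers far from genes carry binding sites for C/EBP, HNF4, FoxA and HNF6 proteins, which maintain the identity of the cell, and for STAT5, which transmits the growth hormone signal. All 12 genes of a list of hepatocyte markers, such as *Alb* and *Ttr*, were the nearest gene of a GR peak, and 7 of the 12 were nearest to a region with both factors.

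A GRE with no mismatch to its consensus of 15 bases was found in 9 of the 603 regions (1.49%). Of the 1234 intergenic GR regions without E2A, which were narrower at the median, 50 held one (4.05%). Of the 9 regions with both factors, 8 were called in both GR replicates. The following 7 of these 8 are shown on the plus strand, with the GRE in capitals and 15 bases either side, because they match the GRE without a mismatch.
Gm17769, chr10:77440977-77441021: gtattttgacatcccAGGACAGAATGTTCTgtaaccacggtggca
4930572O13Rik, chr14:25181634-25181678: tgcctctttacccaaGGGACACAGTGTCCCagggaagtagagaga
Pim3, chr15:88875890-88875934: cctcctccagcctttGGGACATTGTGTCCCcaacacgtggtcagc
Ttpal, chr2:163596158-163596202: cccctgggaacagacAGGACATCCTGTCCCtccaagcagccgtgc
Plk3, chr4:117136280-117136324: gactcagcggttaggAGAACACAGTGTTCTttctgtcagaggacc
Irf2, chr8:46876125-46876169: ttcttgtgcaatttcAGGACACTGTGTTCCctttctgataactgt
Gpt2, chr8:85488066-85488110: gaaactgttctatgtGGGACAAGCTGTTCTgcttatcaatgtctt

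The region near *Pim3*, a serine/threonine kinase gene, was the only one of these 7 called in all 4 lists. The GRE lay 55 bp from the centre of the GR region, and the central 200 bp held 2 E-boxes after it, which are in capitals together with the GRE.
Pim3, chr15:88875867-88876066: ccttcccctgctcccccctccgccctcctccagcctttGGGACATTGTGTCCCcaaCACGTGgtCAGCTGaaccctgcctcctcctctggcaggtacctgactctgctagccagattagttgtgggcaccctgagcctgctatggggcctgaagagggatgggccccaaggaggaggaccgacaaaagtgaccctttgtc

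Most regions held no such GRE. The C/EBP octamer is shown next because it was the motif with the smallest p against the flanks of the regions. Each of the following regions was called in all 4 lists and carries 1 octamer in its central 200 bp, in capitals, at *Gsta3* (a glutathione transferase), *Apob* (the apolipoprotein of very low density lipoprotein), *Sik1* (a kinase that restrains gluconeogenic transcription) and *Errfi1* (an inhibitor of the EGF receptor).
Gsta3, chr1:21232187-21232224: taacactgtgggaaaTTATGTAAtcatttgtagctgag
Apob, chr12:7950440-7950477: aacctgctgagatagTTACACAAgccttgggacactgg
Sik1, chr17:31904264-31904301: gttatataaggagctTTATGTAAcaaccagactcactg
Errfi1, chr4:150755685-150755722: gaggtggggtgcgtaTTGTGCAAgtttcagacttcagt

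Of the 603 regions, 459 (76.1%) had a peak in GR replicate 1 and 461 (76.5%) in GR replicate 2, although replicate 2 had 7334 GR peaks and replicate 1 had 4291. For E2A, 523 regions (86.7%) had a peak in replicate 1, with 4028 peaks, and 268 (44.4%) in replicate 2, with 1892 peaks. Both GR replicates were called at 317 regions (52.6%, 95% Wilson interval 48.6 to 56.5%), beside 30.0% of all GR regions under 1500 bp. Both E2A replicates were called at 188 regions (31.2%, 27.6 to 35.0%), beside 22.8% of all E2A regions under 1500 bp. Among intergenic GR regions without E2A, 390 of 1234 (31.6%, 29.1 to 34.3%) were called in both GR replicates. All 4 lists were called at 117 regions (19.4%, 16.4 to 22.8%). The most frequent pattern was both GR replicates with E2A replicate 1 only, at 165 regions, and the rarest was GR replicate 1 with E2A replicate 2 only, at 13. These shares describe what the regions were selected on and were not tested, and the intervals cover counting error only.

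**Figure D1:**
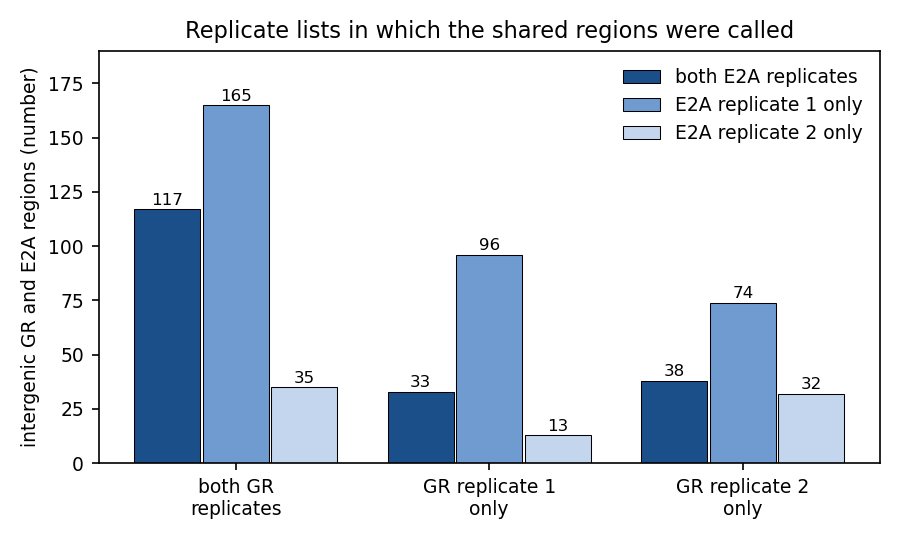
Number of intergenic GR and E2A regions (y axis) called in both or in only 1 of the GR replicates (x axis), with bars split by the E2A replicates. The 117 regions of the first bar were called in all 4 lists, and E2A replicate 1 alone accompanied 165 of the regions called in both GR replicates.

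The shared regions had a median width of 456 bp (quartiles 345 and 604 bp), whereas intergenic GR regions without E2A had a median width of 363.5 bp (300 and 472.8 bp). Regions called in both GR replicates are unions of 2 peaks and had a median width of 538 bp, those of replicate 1 alone 352.5 bp and those of replicate 2 alone 372.5 bp. The GR and E2A regions had 326 bp in common at the median (274 to 417.5 bp), or 74.5% of the GR region. Their centres lay 67 bp apart at the median, with quartiles of 29 and 127.5 bp. Only 2 of the 603 regions shared under 50 bp with E2A, the smallest being 41 bp near *Rassf3*, and 3 of the 1234 intergenic GR regions counted as without E2A lay within 50 bp of an E2A region, the closest 11 bp away near *Cyp8b1*. The widest regions inside the width limit were near *Irf2bpl* (1478 bp), *Cps1* (1422 bp) and *Gpr84* (1389 bp). Just outside it were regions near *Kdm6b* (1511 bp), *Gm21190* (1539 bp) and *Irf2bp2* (1546 bp), and 17 intergenic regions with both factors were left out for their width.

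The regions lay a median of 20150 bp from the start site of the nearest gene, as the deposited annotation gives it, with quartiles of 7465 and 57575 bp. For 417 of 603 (69.2%) the position was upstream of that start site, and for the other 186 it was downstream. The closest was 1015 bp upstream of *Inf2*, which encodes an actin-nucleating formin, and the farthest was 1390457 bp upstream of *Slc10a2*, the ileal bile acid transporter gene, where all 4 lists had a peak. A start site lay within 10 kb of 191 regions (31.7%) and of 376 of the 1234 intergenic GR regions without E2A (30.5%), an odds ratio of 1.06 (95% interval 0.857 to 1.31, two-sided Fisher's exact test, p = 0.628). Within 50 kb the shares were 72.1% and 71.8%. Over the regions called in both lists of each factor, the odds ratio was 1.76 (exact p = 0.0144), and counting from GENCODE starts it was 1.35 (exact p = 0.00316). Regions are not biological replicates, so these and all following p-values describe the deposited lists and not the spread between mice.

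**Figure D2:**
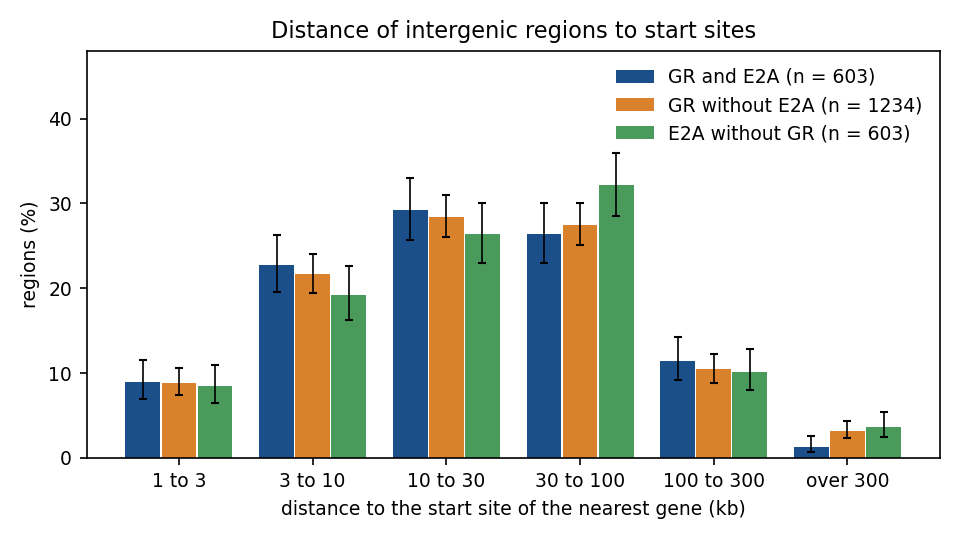
Share of regions (y axis, percent) by distance to the start site of the nearest gene (x axis, kb) for 3 classes of intergenic regions, with 95% Wilson intervals as error bars. Between 10 and 30 kb lay 29.2% of the regions with both factors, 28.4% of those with GR only and 26.4% of those with E2A only.

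The label intergenic depends on the gene catalogue. In GENCODE, a larger catalogue than the deposited annotation, 448 of the 603 regions overlapped no gene and 155 overlapped one, which was protein-coding for 67. Overlap with a protein-coding gene was more frequent than for intergenic GR regions without E2A (11.1% against 6.89%, odds ratio 1.69, 95% interval 1.21 to 2.37, two-sided Fisher's exact p adjusted over 17 location tests = 0.0082). A GENCODE start lay within 1 kb of 84 regions (13.9%) and of 128 of the regions without E2A (10.4%), an odds ratio of 1.40 (1.04 to 1.88, exact p = 0.0293, adjusted p = 0.0553). Of these 84 starts, 30 belonged to protein-coding genes, 27 to lincRNAs and 7 to snRNAs. Against intergenic E2A regions without GR the share was also larger (13.9% against 7.13%, odds ratio 2.11, 1.43 to 3.10, adjusted exact p = 8.9e-04). At least 50% of the central 200 bp was repeat sequence at 49 regions (8.13%) and at 103 regions without E2A (8.35%, odds ratio 0.971, 0.681 to 1.39, exact p = 0.928).

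Sequence motifs were searched on both strands of a window of 200 bp around each region's midpoint. The GRE, by its consensus, and DR1, the direct repeat AGGTCA with 1 base between, were allowed 2 mismatches. No mismatch was allowed for the C/EBP octamers TTACACAA, TTACATAA, TTACGCAA, TTACGTAA, TTGCACAA, TTGCATAA, TTGCGCAA and TTGCGTAA, for FOX (TGTTTAC, or with T in the last place), HNF6 (ATTGATT, with T or C in the third and the last place), HNF4 (CAAAGTCCA or CAAAGTTCA, which can overlap DR1), STAT5 (TTCNNNGAA), AP-1 (TGACTCA), CRE (TGACGTCA) and LRH-1 (CAAGGTCA). CTCF and NFI, by their consensus, were allowed 1 mismatch. E-boxes were counted as any CANNTG and as the core CAGCTG, the core CAGGTG and the core CACGTG, which are contained in the first. P-values were adjusted over the 16 motifs of each comparison by the Benjamini-Hochberg method. A match is a string of letters and not a measured binding site.

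The GRE was less frequent at intergenic GR regions with E2A than at those without. It was found in 121 of 603 windows (20.1%) with both factors and 423 of 1234 (34.3%) with GR only, an odds ratio of 0.481 (95% interval 0.382 to 0.607, adjusted p = 3.7e-09 by Fisher's exact test, two-sided). Of all 8548 GR regions under 1500 bp, 17.96% held a GRE in this window. The odds ratio was 0.502 without the E2A replicate of uncertain genotype and between 0.403 and 0.540 without each list in turn. With up to 1 mismatch the shares were 4.48% and 13.1%, and for the shorter GRE core with none they were 2.49% and 8.43%. Over whole regions, which were wider where E2A was present, the Mantel-Haenszel odds ratio within bins of width was 0.597, an alternative chosen after seeing the data.

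STAT5 sites followed the same direction, with 52 windows (8.62%) against 196 (15.9%), an odds ratio of 0.500 (0.362 to 0.690, adjusted exact p = 9.6e-05). STAT5 sites were present in 7.37% of all GR windows. The STAT5 call was lost without GR replicate 2 (odds ratio 0.684), without E2A replicate 1 (0.671), with both lists of each factor required (0.423) and with GR regions called in both GR lists (0.619). No other motif passed the adjusted threshold in this comparison. C/EBP octamers were found in 66 windows (10.9%) against 91 (7.37%), an odds ratio of 1.54 (1.11 to 2.15, exact p = 0.0126, adjusted p = 0.0674), and in 4.79% of all GR windows. The C/EBP call depended on the processing: within bins of 5% GC content the odds ratio was 1.66 and the adjusted p 0.0174. FOX sites, bound by FoxA proteins, were found in 12.1% and 8.83% of windows (odds ratio 1.42, 1.04 to 1.95, adjusted exact p = 0.122). FOX passed the threshold within the bins of GC content (odds ratio 1.55, the adjusted p 0.0268), in 400 bp windows (1.53) and in windows at the overlap centre (1.49). For DR1 the shares were 7.13% and 9.81% (odds ratio 0.706, 0.492 to 1.02, adjusted exact p = 0.215).

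No difference in E-boxes, the sequence bound by E2A, was detected in the central 200 bp between regions with and without E2A. Any E-box was found in 398 of 603 windows (66.0%) with both factors and in 849 of 1234 (68.8%) with GR only, an odds ratio of 0.880 (0.716 to 1.08, adjusted exact p = 0.484). The core CAGCTG was present in 12.8% and 12.3% of windows (odds ratio 1.04, 0.777 to 1.40), CAGGTG in 15.9% of both (1.00, 0.768 to 1.31) and CACGTG in 4.31% and 5.11% (0.838, 0.525 to 1.34). An excess over 1.40 for the core CAGCTG, or over 1.31 for CAGGTG, lies outside these intervals. This holds for windows centred on the GR region only. The E2A centre lay 67 bp away at the median, with an upper quartile of 127.5 bp, and E-boxes in wider windows or at the overlap centre are not given here. In all GR windows, 54.5% held an E-box.

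**Figure D3:**
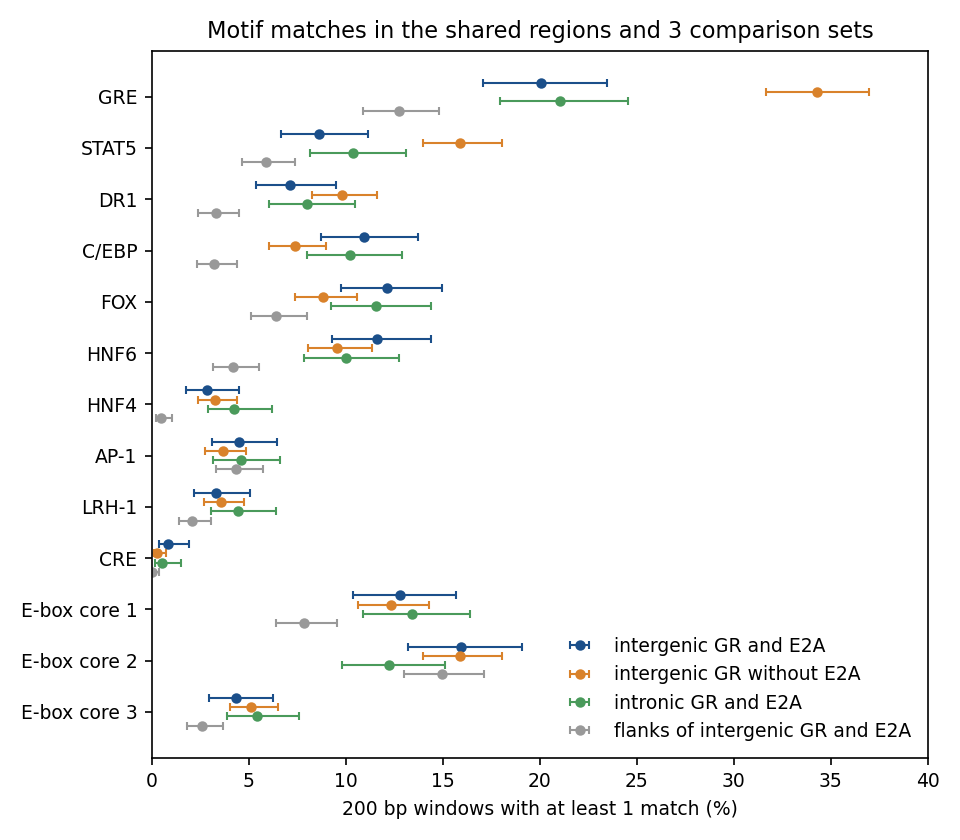
Share of 200 bp windows with at least 1 match (x axis, percent, with 95% Wilson intervals) for 13 motifs (y axis) in 4 sets of windows. E-box core 1 is CAGCTG, core 2 is CAGGTG and core 3 is CACGTG. The GRE share of the regions with both factors (20.1%) lies beside that of intronic regions with both (21.1%), below GR regions without E2A (34.3%) and above the flanks (12.7%).

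In the 50 bp bins on either side of the region centres, GRE and C/EBP matches followed the same order as in the 200 bp windows. In the 50 bp to the right of the centre, a GRE was centred in 6.97% of the regions with both factors and in 11.8% of those with GR only. At 175 bp to the right the order was reversed, with 4.81% and 3.81%. At 375 bp the shares were 5.97% and 3.485% to the right, and 2.32% and 3.40% to the left. With both factors, the bins on either side of the one at 375 bp to the right held 3.98% and 4.15%. C/EBP octamers in the bin right of the centre were found in 3.81% of the regions with both factors and 2.03% of those with GR only. In the bin left of the centre the C/EBP shares were 2.985% and 2.107%. In the next bin to the left the order was reversed, with 2.32% and 2.43%. Any E-box was found in 24.9% of the regions with both factors in the bin right of the centre and in 24.9% at 175 bp to the right.

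**Figure D4:**
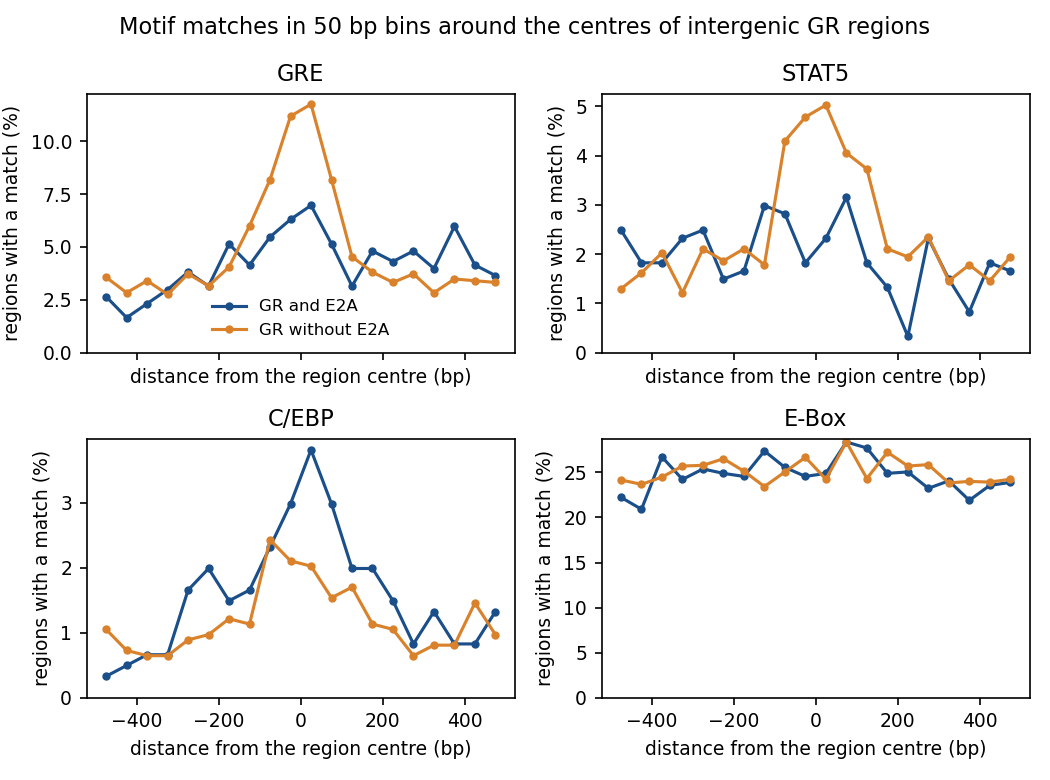
Share of regions (y axis, percent) with a match centred in each 50 bp bin, by distance from the centre of the GR region (x axis, bp), for the GRE, STAT5, C/EBP and any E-box. GRE matches are most frequent just right of the centre in both classes, reaching 6.97% with E2A and 11.8% without. With E2A this stands little above the 5.97% at 375 bp to the right, where the share without E2A is 3.485%. The bins on either side of that one hold 3.98% and 4.15% with E2A. At 375 bp to the left the shares are 2.32% and 3.40%. E-box matches show no central peak.

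Compared with 1125 windows of their own flanks, which began 500 bp outside the region and met no peak, the regions with both factors held more of 8 of the 16 motifs and less of none. C/EBP was found in 10.9% against 3.20% (odds ratio 3.72, 2.45 to 5.65, adjusted exact p = 4.9e-09) and HNF6 in 11.6% against 4.18% (3.01, 2.05 to 4.42, adjusted exact p = 1.3e-07). HNF4 followed with 2.82% against 0.444% (6.50, 2.39 to 17.7, adjusted exact p = 2.6e-04), and DR1 with 7.13% against 3.29% (2.26, 1.44 to 3.55, adjusted exact p = 0.00118). FOX sites had an odds ratio of 2.01 (1.43 to 2.84) and the GRE one of 1.72 (1.32 to 2.25), each with an adjusted exact p of 2.6e-04. The seventh was the CRE, the site of CREB, with 5 windows against 0 (adjusted exact p = 0.0102). The eighth was the E-box core CAGCTG, with 12.8% against 7.82% (1.72, 1.25 to 2.38, adjusted exact p = 0.00245). For any E-box the shares were 66.0% and, in the flanks, 68.5% (0.891, 0.722 to 1.10, adjusted exact p = 0.376). Over the 117 regions called in all 4 lists, 1 motif passed the threshold. Fisher's exact test took the flank windows as independent of their own regions, so the matching by region was not used.

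No difference in motif content was detected between the intergenic and the intronic regions with both factors. None of the 16 motifs passed the adjusted threshold of Fisher's exact test, and none had an unadjusted p under 0.05. The GRE was found in 20.1% of intergenic and 21.1% of intronic windows (odds ratio 0.941, 0.711 to 1.25), C/EBP in 10.9% and 10.2% (1.08, 0.749 to 1.57) and any E-box in 66.0% and 66.7% (0.968, 0.761 to 1.23). The smallest p was that of CAGGTG (15.9% against 12.2%, odds ratio 1.36, 0.978 to 1.89, exact p = 0.0677).

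Centred on the E2A region instead, the intergenic regions with both factors held a GRE in 15.1% of windows and E2A regions without GR in 9.29% (odds ratio 1.74, 1.22 to 2.47, adjusted exact p = 0.0427). It was the single motif of 16 to pass, and the call was lost in each of 5 settings in which no motif passed: without E2A replicate 1, at a width limit of 1000 bp, in 100 bp windows, with no GENCODE start within 1 kb, and with both lists of each factor required. C/EBP (11.6% against 11.9%), HNF6 (11.8% against 11.6%) and any E-box (68.3% against 67.5%) had odds ratios between 0.969 and 1.04. For FOX the shares were 13.3% and 15.9% (0.808, 0.586 to 1.11, adjusted exact p = 0.707).

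Within the shared regions the GRE varied with the lists in which they were called, given here without a test. Of regions called in both GR replicates but 1 E2A replicate, 55 of 200 held a GRE (27.5%, 95% Wilson interval 21.8 to 34.1%), and of those called in all 4 lists 20 of 117 did (17.1%, 11.4 to 24.9%). With 1 GR and both E2A replicates it was 8 of 71 (11.3%, 5.82 to 20.7%), and with 1 of each 38 of 215 (17.7%, 13.2 to 23.3%). At intergenic GR regions without E2A, both replicates were called at 390 regions, of which 46.7% held a GRE, and for those called in 1 replicate the share was 28.6%. C/EBP octamers were found in 15.4% of the 117 regions called in all 4 lists (9.96 to 23.0%) and 9.50% of the 200 with both GR replicates and 1 E2A replicate (6.17 to 14.4%). With 1 GR replicate they were found in 5 of 71 regions with both E2A replicates (7.04%, 3.05 to 15.5%) and 24 of 215 with 1 (11.2%, 7.62 to 16.1%), and these intervals overlap. Where E2A covered at least 50% of the GR region, 63 of 518 windows held C/EBP (12.2%) and 67 held HNF6 (12.9%), and where it covered less, each was found in 3 of 85 (3.53%). In the same order, the GRE was found in 19.5% and 23.5% of windows, FOX in 62 of 518 and 11 of 85, STAT5 in 8.88% and 7.06%, and any E-box in 66.6% and 62.4%.

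The 603 regions had 500 nearest genes, which were 8.82% of the 5667 genes nearest to any GR peak. For 427 of the 500 a single region was found, 52 had 2 and 14 had 3, while 5 genes had 4 and 2 genes had 5. The genes with 4 or 5 were *Irf2bp2*, *Sik1*, *Pim3*, *Ppp1r3b*, *Tomm20*, *Rreb1* and *Gm21190*. Neighbouring regions within 10 kb of the next formed 11 sets of 3 and 1 set of 4. Assignment to the nearest gene is a matter of distance and was not tested against expression.

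*Irf2bp2*, which encodes a corepressor that binds interferon regulatory factor 2, had 5 regions on chromosome 8 and each of them was called in all 4 lists. The region nearest to the gene, 16265 bp upstream (126609701 to 126610253), had GR peaks of 482 and 475 bp in replicates 1 and 2 and E2A peaks of 385 and 252 bp. At 20594 bp upstream the GR peaks were 473 and 337 bp wide and the E2A peaks 431 and 356 bp. The other 3 lay together from 126656257 to 126666947, between 62821 and 72987 bp upstream, and their 12 peaks were between 260 and 756 bp wide. None of the 5 held a GRE in its central 200 bp, and the one beginning at 126659922 held 2 C/EBP octamers.

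*Sik1*, the kinase gene shown above for its C/EBP octamer, had 5 regions on chromosome 17 between 45681 and 84698 bp upstream. The region with the octamer (31903865 to 31904569) had GR peaks of 561 and 705 bp and E2A peaks of 498 and 283 bp in replicates 1 and 2. A second, from 31930158 to 31930553, was also called in all 4 lists, with GR peaks of 341 and 351 bp and E2A peaks of 275 and 311 bp. The other 3 had E2A in replicate 1 only, and GR in both replicates, replicate 1 only and replicate 2 only. *Pim3* had 4 regions on chromosome 15, 1 of them 11327 bp upstream and 3 between 4896 and 13456 bp beyond the start site. All 4 had GR peaks in both replicates, and E2A replicate 2 had a peak at 2 of them. The region with the exact GRE (88875650 to 88876285) had GR peaks of 636 and 526 bp and E2A peaks of 421 and 296 bp in replicates 1 and 2.

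*Ppp1r3b*, whose product brings a phosphatase to glycogen, had 4 regions on chromosome 8, all with GR peaks in both replicates. Of these, 3 lay between 157033 and 169022 bp upstream within 35206045 to 35218708, and 1 lay 29556 bp beyond the start site. E2A replicate 1 had a peak at each and E2A replicate 2 at 2 of them. *Tomm20*, for an outer membrane receptor of mitochondria, had 4 regions, of which 3 lay within 126805288 to 126808941 on chromosome 8 at over 136 kb from the start site, and 1 of the 4 was called in all 4 lists. *Rreb1*, a zinc finger factor gene, had 4 regions between 136436 and 205308 bp upstream, and none was called in all 4 lists. The 4 regions of the predicted gene *Gm21190*, at 15457748 to 15469617 of chromosome 5, were called in GR replicate 2 and E2A replicate 2 only and so drop out without either list.

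**Figure D5:**
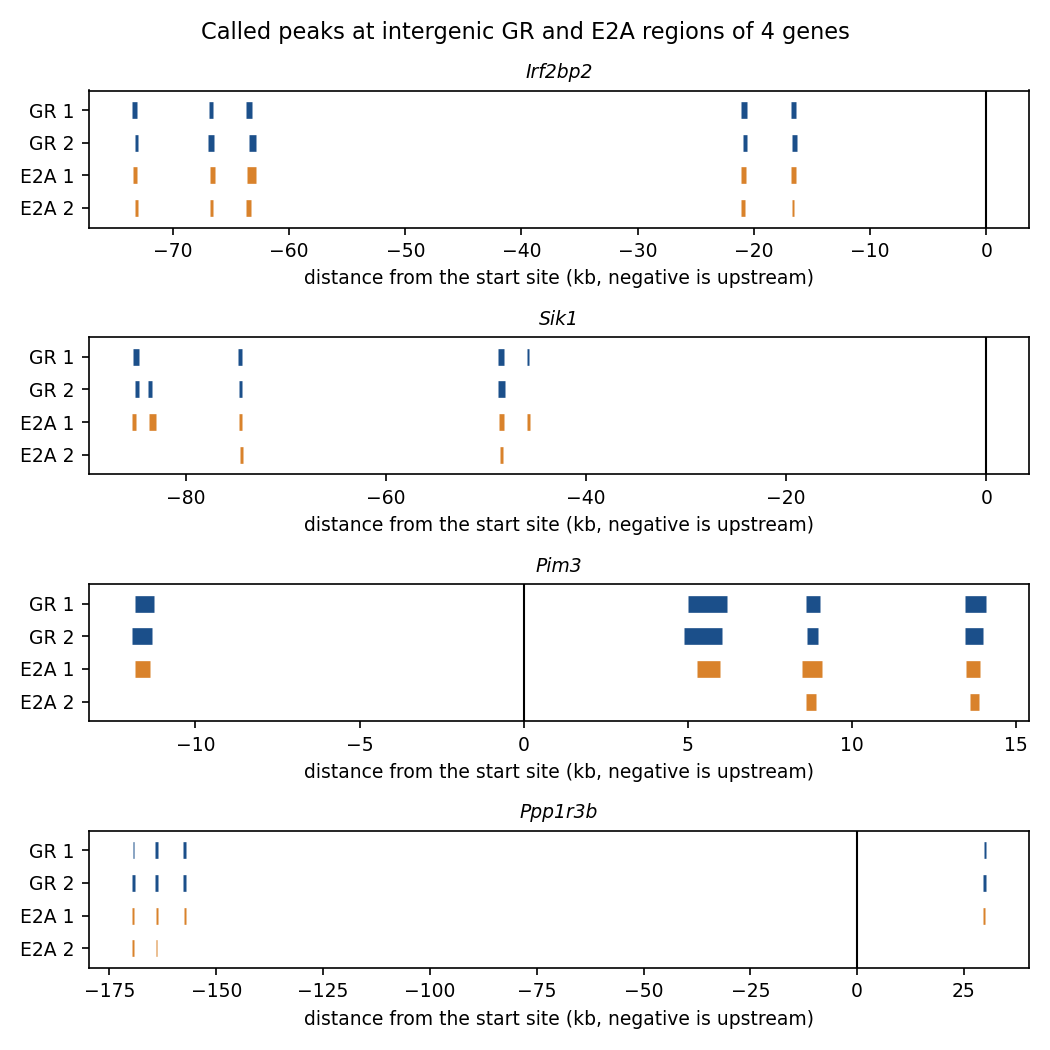
Called peaks at the intergenic GR and E2A regions of *Irf2bp2*, *Sik1*, *Pim3* and *Ppp1r3b*, by list (y axis; GR and E2A replicates 1 and 2) and by distance from the start site (x axis, kb; the vertical line marks 0). All 5 *Irf2bp2* regions have a peak in all 4 lists, whereas E2A replicate 2 lacks a peak at 3 *Sik1* regions and at 2 each of *Pim3* and *Ppp1r3b*.

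Genes of 15 lists of liver functions, 391 genes in all, were looked up among the nearest genes. Any GR peak was nearest to 305 of them, an intergenic GR region without E2A to 94, and a region with both factors to 83, with 108 regions. Of all 5667 genes nearest to a GR peak, 500 (8.82%) were nearest to a region with both factors. An intergenic GR region without E2A was nearest to 906 genes, so these background counts apply to both classes in the lists below. For 22 of the 83, at least 1 region was called in all 4 lists, and these are named here. The lists were chosen for liver genes with earlier results of these peaks known, so the counts describe them and were not tested.

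Of 26 genes of glucose production and handling (22 nearest to any GR peak, 10 to a GR region without E2A), 6 had 14 regions. With all 4 lists these were *Fbp1*, *Ppp1r3g*, *Ppp1r3b* and *Sik1*. At *Fbp1*, for the gluconeogenic fructose bisphosphatase, the region 19856 bp upstream (chromosome 13, 62908138 to 62908511) had GR peaks of 358 and 265 bp and E2A peaks of 624 and 441 bp in replicates 1 and 2. It held no GRE and no C/EBP octamer in its central 200 bp but 6 E-boxes. *Ppp1r3g*, another glycogen-targeting subunit, had 2 regions at 3905 and 7805 bp upstream, both called in all 4 lists. Insulin signalling genes had a region at 2 of 21 genes and clock genes at 1 of 19, none of them in all 4 lists. In these 2 gene sets, any GR peak was nearest to 15 genes each, and a GR region without E2A to 6 and 1.

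Of 24 classic glucocorticoid targets (22 nearest to any GR peak, 9 to a GR region without E2A), 7 had 9 regions. *Klf15*, a transcription factor gene of amino acid breakdown, had 1 region 25642 bp beyond its start site (chromosome 6, 90492062 to 90492674), with GR peaks of 574 and 613 bp and E2A peaks of 335 and 327 bp in replicates 1 and 2. *Errfi1* had 3 regions, of which those 68277 and 97920 bp upstream were called in all 4 lists. The third, 18183 bp beyond its start site, was called in GR replicate 1 only and met a broad E2A domain whose centre lay 4134 bp away. The region 97920 bp upstream, with the C/EBP octamer shown above, had GR peaks of 677 and 662 bp and E2A peaks of 564 and 391 bp in replicates 1 and 2. Its central 200 bp held no E-box.
Errfi1, chr4:150755585-150755784: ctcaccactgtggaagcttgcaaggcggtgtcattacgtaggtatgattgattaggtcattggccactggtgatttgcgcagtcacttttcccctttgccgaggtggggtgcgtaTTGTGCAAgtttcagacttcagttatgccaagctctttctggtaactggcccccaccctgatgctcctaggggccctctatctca

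Among genes of lipid metabolism, 6 of 28 fatty acid and triglyceride synthesis genes had 9 regions, 5 of 16 apolipoprotein genes had 6, 4 of 22 cholesterol genes had 4 and 2 of 21 fatty acid oxidation genes had 2. In the same order, any GR peak was nearest to 24, 11, 19 and 12 genes. A GR region without E2A was nearest to 7, 2, 5 and 2. Called in all 4 lists were regions of *Fads2*, a fatty acid desaturase (20681 bp upstream), *Pnpla3*, a lipid droplet protein (11299 bp upstream), *Apoa5* (9174 bp upstream), *Apoe* (1671 bp upstream) and *Apob*. The *Apob* region with the C/EBP octamer, 27044 bp upstream (chromosome 12, 7950109 to 7950633), had GR peaks of 357 and 525 bp and E2A peaks of 378 and 357 bp in replicates 1 and 2. Its nearest GENCODE start, 48 bp away, was that of *Gm48633*. The *Pnpla3* window held 5 E-boxes, those of *Apoa5* and *Apoe* held none, and no GRE was found in any of these 5 windows.

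Of 32 genes of amino acid breakdown and the urea cycle (29 nearest to any GR peak, 11 to a GR region without E2A), 10 had 11 regions. *Cps1*, the entry enzyme of the urea cycle, had a region 5938 bp upstream with GR peaks of 1321 and 1422 bp, while its E2A peaks measured 517 and 344 bp in replicates 1 and 2. *Ass1*, for argininosuccinate synthase, had a region 5215 bp upstream with GR peaks of 1031 and 643 bp and E2A peaks of 512 and 490 bp. *Hpd*, of tyrosine breakdown, had one 13714 bp upstream. At the alanine aminotransferase gene *Gpt2*, both regions were called in E2A replicate 1 only. The region with the exact GRE, 3616 bp upstream, had GR peaks of 1148 and 908 bp and an E2A peak of 805 bp in replicate 1, and its GRE lay 339 bp from the centre.

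Of 31 genes for liver transcription factors (27 nearest to any GR peak, 12 to a GR region without E2A), 8 had 14 regions. *Foxa2*, of the FoxA family, had 3 regions, and the one beginning at 147944181 on chromosome 2 was called in all 4 lists, with GR peaks of 304 and 470 bp and E2A peaks of 380 and 264 bp in replicates 1 and 2. *Nr0b2*, for the corepressor SHP, had 1 region 9799 bp beyond its start site with GR peaks of 432 and 475 bp and E2A peaks of 456 and 253 bp. *Rxra*, for the partner of many nuclear receptors, had 2 regions, and the one 76993 bp upstream was called in all 4 lists and shared 1117 bp with E2A. Of 22 genes of E proteins and their relatives (13 nearest to any GR peak, 2 to a GR region without E2A), 2 had a region. That of *Id2*, an inhibitor of E proteins, lay 2555 bp upstream and was called in all 4 lists.

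Genes of secreted and detoxifying proteins made up much of the rest. Of 51 plasma protein genes, 14 had 15 regions, and those of *Fgg* (a fibrinogen chain, 4248 bp upstream) and *Gc* (the vitamin D carrier, 179232 bp beyond its start site) were called in all 4 lists. The *Fgg* region had GR peaks of 375 and 367 bp and E2A peaks of 423 and 291 bp in replicates 1 and 2, and its window held 2 GRE matches and 2 E-boxes. Of 50 cytochrome P450 and conjugating enzyme genes, 10 had 12 regions, and the *Gsta3* region 8265 bp upstream was the one called in all 4 lists. Of 22 growth hormone, cytokine and MAPK feedback genes, 8 had 11 regions, and that of *Lepr*, the leptin receptor gene, lay 22494 bp upstream and was called in all 4 lists. Iron and heme genes had a region at 2 of 16 genes. For the gene sets of this paragraph, in order, any GR peak was nearest to 42, 32, 18 and 14 genes. A GR region without E2A was nearest to 8, 11, 6 and 5.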

How the data were processed

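GR and E2A ChIP-Seq peaks of wild-type mouse liver were analysed, with 2 replicates of each and groups taken from the sample titles. The authors aligned reads to mm10, removed duplicates, kept unique read pairs, downsampled each library and called peaks per sample. The submitters' processing notes name BWA 0.7.13, Picard 1.119 and MACS2 2.1.0, whereas the paper's methods name other versions of Picard and MACS2. The deposited values are positions, widths and distances to start sites in bp, not normalized. They hold no counts, heights or q-values, so the depth behind a peak is unknown. GR replicate numbers follow the labels and are reversed in the file names. The paper calls the replicates biological.

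Peaks were merged and classed, and shares were tested by Fisher's exact test (two-sided) with Benjamini-Hochberg adjustment and 95% Woolf intervals. Motifs were read from GRCm38.p6, whose chromosome ends no peak passed. The tests used scipy 1.17.1 and statsmodels 0.14.6 in Python 3.11.15, and sequence was read with pysam 0.24.0. The code was tested on simulated data. Genes named are list genes with a region in all 4 lists, genes with 4 or more regions, nearest genes of GREs with no mismatch in regions called in both GR replicates (1 of these is not reported here) and regions at the extremes of distance or width. Members, lists and tests were chosen with earlier results of these data known. Alternatives changed the width limit, the overlap, the lists required, the window, the GRE definition and the start sites. RNA-Seq and ChIP-Seq in E47 mutants were not analysed here.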

Additional observations from a re-analysis of the deposited data

How the results depend on the processing

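The lower GRE frequency against intergenic GR regions without E2A kept its direction and passed the threshold under every alternative run, with odds ratios from 0.236 to 0.622. The number of shared regions was 117 when both lists of each factor were required and 262 to 522 without each list in turn. The C/EBP odds ratio of 1.54 missed the threshold, and passed it at a width limit of 1000 bp (1.65), with overlap of 50% of the shorter region (1.6), centres within 250 bp (1.7), 400 bp windows (1.61), windows at the overlap centre (1.62), windows under 50% repeat (1.65), no GENCODE start within 1 kb (1.66), GC bins (1.66) and whole regions within width bins (1.82, chosen after seeing the data), and it was 1.44 to 1.75 without each list, passing only without GR replicate 2 (1.75). Motifs called against GR regions without E2A numbered 6 in 400 bp windows and at the overlap centre, 1 with both lists required and 1 to 2 without each list. The 6 included the GRE, STAT5, C/EBP and FOX in both settings, and the others are not named here. Only regions with E2A have an overlap centre. E-box odds ratios were not followed through these settings here, except within GC bins (any E-box 0.940). Against flanks they numbered 1 with both lists required and 5 to 9 without each list. Against E2A regions without GR, 0 passed at 1000 bp width, in 100 bp windows, with no GENCODE start within 1 kb and with both lists required, and 0 to 2 without each list. The odds ratio of a start site within 10 kb was 0.982 to 1.2 without each list, 1.76 with both lists required and 1.35 from GENCODE starts. That of a GENCODE start within 1 kb was 1.35 at 1000 bp width, 1.31 with overlap of 50% of the shorter region, 1.23 with centres within 250 bp, 1.29 with both lists required and 1.25 to 1.42 without each list, with none of these passing the threshold. The odds ratio of repeat windows was 0.891 to 1.4 without each list and 1.66 with both lists required. The STAT5 and FOX odds ratios were followed through these settings after seeing the data. The cause of these shifts was not tested. Fewer shared regions were left where lists were required or left out. No paired analysis was possible because no result comes from a test across samples. Without read counts, absence of a call cannot be told from too few reads at that place.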

Other observations

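Promoter calls at the nearest genes were compared after seeing the data. E2A was called at the promoter of the nearest gene for 189 of the 603 intergenic regions with both factors (31.3%) and for 309 of the 1234 with GR only (25.04%), an odds ratio of 1.37 (95% interval 1.10 to 1.69, two-sided Fisher's exact p adjusted over 17 location tests = 0.0125). For GR the shares were 53.1% and 49.0% (1.18, 0.967 to 1.43, adjusted exact p = 0.190). Counted per gene, E2A was called at the promoters of 141 of the 500 genes nearest to a region with both factors. Of the 732 genes nearest to regions with GR only and to none with both factors, it was called at 126 (1.89, 1.44 to 2.48, adjusted exact p = 1.0e-04). The 174 genes nearest to regions of both kinds, each with more than 1 region, were counted among the 500 only. The per-gene odds ratios therefore also reflect this grouping and cannot be set against those per region. Per gene, GR was called at the promoters of 251 of the 500 (50.2%) and 296 of the 732 (40.4%), an odds ratio of 1.49 (1.18 to 1.87, adjusted exact p = 0.00368). The GR difference thus passed the threshold in the per-gene grouping and not per region.

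Within the 603 windows, no difference in the other 15 motifs was detected between windows with and without a GRE. Any E-box was present in 83 of 121 windows with a GRE (68.6%) and 315 of 482 without (65.4%), an odds ratio of 1.16 (0.755 to 1.78), and C/EBP in 13 of 121 and 53 of 482 (0.974, 0.513 to 1.85). Adjusted over the 15 motifs, Fisher's exact p was 1 for each, and none had an unadjusted p under 0.05.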
